A study of Homo sapiens with 8 samples.

Results

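The non-steroid nuclear receptors are ligand-activated or orphan transcription factors that share the fold of the estrogen and androgen receptors but do not bind sex steroids, glucocorticoids or mineralocorticoids as their classical ligands. The set analysed here holds 39 genes, chosen by symbol from a deposited table of 57773 genes, with the steroid receptors and the NR1D clock receptors left out. All 39 symbols had a row. RNA came from ZR-75-1, an established human breast cancer line that expresses the estrogen receptor. The 4 E2+DHT libraries were from cells that spent 72 h in medium depleted of steroids before receiving 10 nM estradiol (E2) together with 10 nM of the androgen dihydrotestosterone (DHT) for 4 h, and the 4 E2 libraries were from cells given 10 nM E2 alone for 4 h after the same depletion. No arm without hormone was analysed, so the contrast measures what DHT adds to E2. All libraries come from 1 cell line. Whether replicates were separate cultures is not stated in the labels, so p-values capture only the spread among these samples, which may be technical.

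Most nuclear receptors carry a zinc-bound DNA-binding domain and a pocket for a small lipophilic ligand. The retinoid X receptors (RXRs) act as shared partners: retinoic acid receptors, thyroid hormone receptors, the vitamin D receptor, the peroxisome proliferator-activated receptors (PPARs) and the liver X receptors (LXRs) bind DNA as heterodimers with an RXR. In breast epithelium, retinoic acid signalling through RARA is known to restrain proliferation, and RARA is a known estrogen-responsive gene in estrogen receptor positive lines.

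The receptors split about evenly into expressed and low or silent genes, and no receptor gene was called different between the treatments. With a minimum mean of 0.5 RPKM (reads scaled by exon length and by library size) over the 8 libraries, 20 of the 39 genes were tested and 19 lay below. None of the 20 passed an adjusted p of 0.05 (limma on log2(RPKM + 0.5), Benjamini-Hochberg), where 21 of 11375 tested genes in the whole table did (0.185%: 20 higher, or 0.176%, and 1 lower, or 0.00879%). At an unadjusted limma p under 0.05 the list had 1 member, NR4A1, of 20 tested, against 4.47% of all tested genes. The 95% intervals of the fold changes of the 20 genes lay between 0.795 and 1.48, on the RPKM + 0.5 scale, which understates the change of low genes. In bulk RNA, fewer cells of a type and less RNA per cell cannot be told apart.

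The treatment labels of the records conflict, and this touches every value below. The title disagrees with the library name about the treatment in 4 of the 8 records. Groups and replicate numbers follow the library names, which also head the columns of values. Under these names the recorded passage was 9 for E2+DHT replicates 1 and 3 and 11 for replicates 2 and 4, against passage 8 for E2 replicates 1 and 3 and passage 10 for replicates 2 and 4. Under the library names, treatment and passage therefore cannot be told apart. Under the record titles, each treatment held passages 8, 9, 10 and 11. Whether the recorded passage belongs to the title or to the library name is not known. With groups from the record titles, 0 of the 20 receptor genes were called as well (2 of 11375 genes in all).

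Library sizes behind the RPKM scaling were 19599217 to 34616639 reads with E2+DHT and 19955045 to 31913885 reads with E2. Reads recovered from the steps of the RPKM values showed that a tested receptor gene had between 65 and 3083 reads in a library, with a median of 349. The share of reads lying in annotated exons was 83.2% to 84.8% with E2+DHT. It was 83.0% and 83.7% in E2 replicates 1 and 3, but 78.3% and 80.0% in E2 replicates 2 and 4, which stood apart from the other 6 libraries. All 8 luminal markers were expressed. ESR1, the estrogen receptor, had 4.98 to 6.05 RPKM with E2+DHT and 5.87 to 7.62 RPKM with E2, with overlap (log2 fold change -0.28, limma with Benjamini-Hochberg adjusted p = 0.761, under 0.05 before adjustment). FOXA1, a pioneer factor of estrogen receptor binding, had 41.8 to 48.2 RPKM with E2+DHT and 38.5 to 48.2 RPKM with E2 (log2 fold change 0.03), and the luminal keratin KRT19 had 833 to 1007 RPKM with E2+DHT and 593 to 955 RPKM with E2 (log2 fold change 0.22). The basal markers KRT5, KRT14 and TP63 did not exceed 0.0548 RPKM in any library, the immune markers PTPRC, CD3E and CD68 did not exceed 0.119 RPKM, the endothelial markers VWF and CDH5 did not exceed 0.120 RPKM, and the liver markers ALB, APOB and TTR did not exceed 0.0594 RPKM. Of the fibroblast markers COL1A1 had 0.738 to 1.06 RPKM with E2+DHT and 0.680 to 0.842 RPKM with E2, while COL1A2 and PDGFRB stayed at or below 0.0176 RPKM.

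The values given further on varied with the base composition of the transcripts. The coding sequence of the most conserved element of the family shows how members differ in composition over a short stretch. Each sequence below runs from the first to the fourth cysteine codon of the first zinc module of the DNA-binding domain, 21 codons or 63 bases, read 5′ to 3′ on the coding strand from GENCODE transcripts on GRCh38, with the 4 zinc-binding cysteine codons in capitals. NR2F6, ESRRA and NR1H2 were chosen as abundant members that differed most between the E2 libraries of different recorded passage. RARA was chosen as the second most abundant member. THRB and NR2C1 are shown as AT-richer members that differed less within E2, and NR4A1 because it had the lowest p. Within E2+DHT, THRB differed about as much as ESRRA, in the opposite direction. The choice was made after the values were seen.
NR2F6: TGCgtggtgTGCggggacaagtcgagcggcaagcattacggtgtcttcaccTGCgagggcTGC
ESRRA: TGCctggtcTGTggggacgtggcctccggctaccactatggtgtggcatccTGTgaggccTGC
NR1H2: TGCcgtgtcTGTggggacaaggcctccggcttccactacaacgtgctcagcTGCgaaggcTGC
RARA: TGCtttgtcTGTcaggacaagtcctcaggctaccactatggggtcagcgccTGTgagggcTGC
NR4A1: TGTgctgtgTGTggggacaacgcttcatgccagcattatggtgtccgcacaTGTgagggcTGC
THRB: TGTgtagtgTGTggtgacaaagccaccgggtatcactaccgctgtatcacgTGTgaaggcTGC
NR2C1: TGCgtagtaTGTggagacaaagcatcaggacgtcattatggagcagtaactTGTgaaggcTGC

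The stretches lie at chr19:17244993-17245055 on the minus strand for NR2F6, chr11:64307414-64307476 on the plus strand for ESRRA, chr19:50378226-50378288 on the plus strand for NR1H2 and chr17:40348399-40348461 on the plus strand for RARA. NR4A1 has its stretch at chr12:52055127-52055189 on the plus strand and THRB at chr3:24152393-24152455 on the minus strand, while that of NR2C1 is split over 2 exons within chr12:95058455-95059933 on the minus strand. Of the 21 codons, 19 end in G or C in NR2F6, 18 in NR1H2, and 16 in ESRRA and in RARA. In THRB 12 codons do so, in NR4A1 11 and in NR2C1 4. Over the whole longest transcript, GC content was 71.1% in NR2F6, 63.2% in ESRRA, 62.97% in RARA and 60.9% in NR1H2, and 59.8% in NR4A1, 43.1% in THRB and 38.7% in NR2C1. The stretch and the whole transcript did not always go together. NR2F2, not shown, has 20 codons ending in G or C and a transcript GC content of 49.8%, and RARG has 15 and 60.0%. The 20 tested receptor genes had a median transcript GC content of 56.9%, against 48.0% over all tested genes with a value. Only 23.0% of all tested genes lay above the receptors' median.

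The receptors spanned a wide range of levels. Averaged over the 8 libraries, NR2F6 was the highest at 18.1 RPKM, above 93.3% of protein-coding genes, followed by RARA at 12.7, NR1H2 at 8.07, ESRRA at 7.36 and RXRA at 6.68 RPKM. NR2F6 and RARA together made up 37.7% of the summed RPKM of the 39 genes, and the 6 highest, RARG included, made up 70.1%. Below them came RARG at 4.27 RPKM, VDR at 3.59, NR2C1 at 2.98, RXRB at 2.05, THRB at 1.99 and NR2F2 at 1.97. NR2C2, THRA, PPARD, NR1H3 and NR4A1 lay between 1.01 and 1.60 RPKM, and PPARG, PPARA, HNF4G and NR6A1 between 0.580 and 0.848 RPKM. The ranges of neighbours over the 8 libraries overlapped nearly everywhere. Read within each library, NR2F6 lay above RARA and RARA above NR1H2 in all 8. ESRRA lay below RXRA in E2 library 2, at 4.70 against 5.13 RPKM. In E2 library 4 both had 6.04 RPKM, and in the others ESRRA lay above RXRA. The overlapping ranges alone do not settle the order of the remaining neighbours. Among the tested genes, steps without overlap separated RXRA from RARG and NR2C1 from RXRB.

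**Figure D1:**
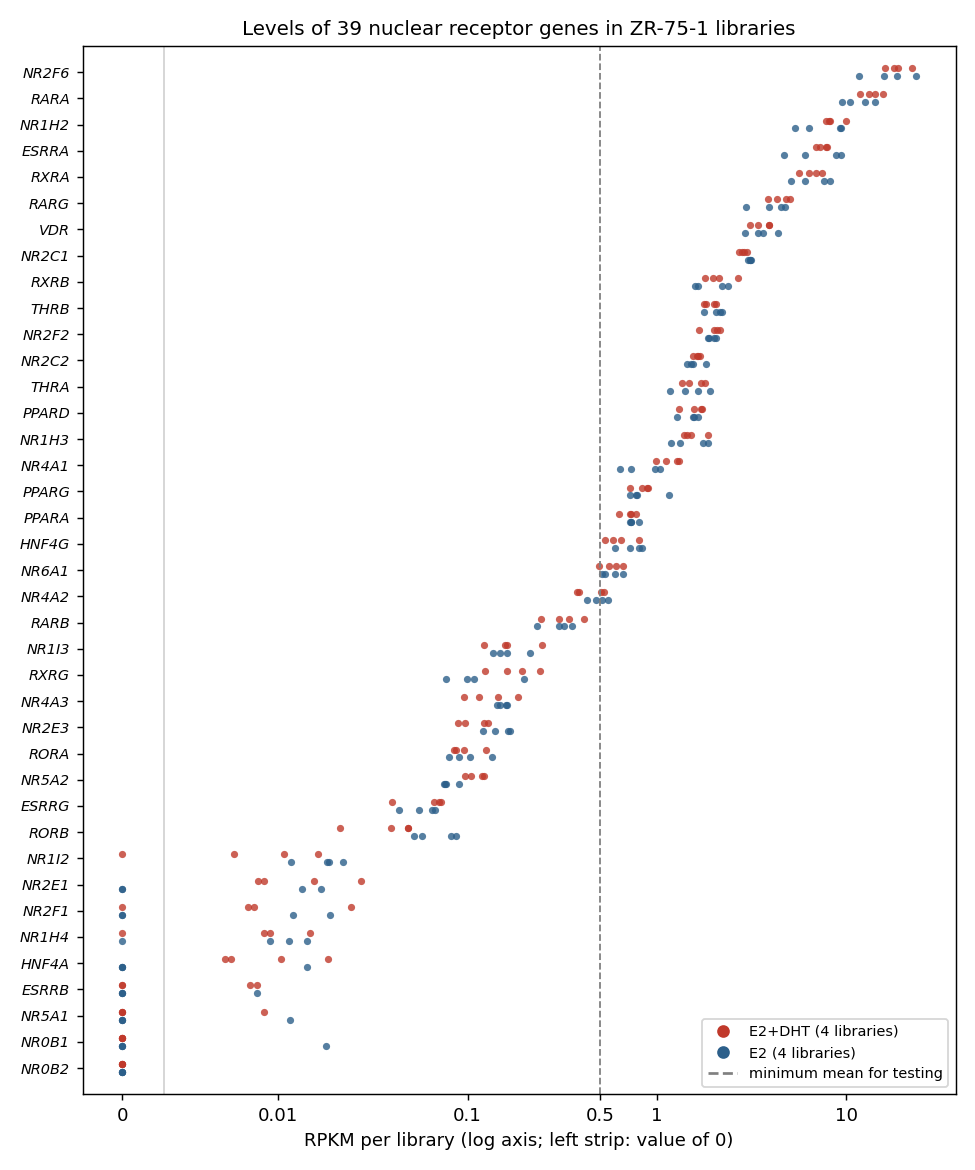
RPKM of the 39 receptor genes in each library on a log axis, with E2+DHT libraries in red above E2 libraries in blue; values of 0 are in the left strip and the dashed line marks the 0.5 RPKM mean needed for testing. The 20 genes above the line hold 97.9% of the summed RPKM, and NR0B2 is at 0 in all 8 libraries.

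The RXRs, the shared heterodimer partners, were present mainly as RXRA. RXRA (ENSG00000186350, chromosome 9, 137208944 to 137332431 on hg19) had 7.44, 5.66, 6.36 and 6.91 RPKM in E2+DHT libraries 1 to 4 and 8.24, 5.13, 7.69 and 6.04 RPKM in E2 libraries 1 to 4. The treatments overlapped, with the highest and the lowest value both among the E2 libraries. RXRA averaged 6.59 ± 0.762 RPKM with E2+DHT and 6.78 ± 1.44 RPKM with E2 (mean ± SD, n = 4 each), a log2 fold change of -0.02 (standard error 0.139, limma with Benjamini-Hochberg adjusted p = 0.9997). RXRB, the broadly expressed isotype, had 2.67, 1.81, 1.98 and 2.13 RPKM with E2+DHT and 2.38, 1.66, 2.21 and 1.58 RPKM with E2. E2 libraries 2 and 4 lay below all E2+DHT libraries, while E2 libraries 1 and 3 lay within their range (log2 fold change 0.11). RXRG, the isotype best known from muscle and brain, lay below the tested range at 0.124 to 0.241 RPKM with E2+DHT and 0.0772 to 0.198 RPKM with E2. RXRA made up 74.0 ± 1.34% of the summed RXR RPKM with E2+DHT and 76.5 ± 1.66% with E2.

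The retinoic acid receptors (RARs), which bind all-trans retinoic acid, were led by RARA (ENSG00000131759, chromosome 17, 38465444 to 38513094). RARA had 15.7, 11.8, 13.2 and 14.3 RPKM in E2+DHT libraries 1 to 4 and 14.2, 9.54, 12.6 and 10.5 RPKM in E2 libraries 1 to 4. E2 libraries 2 and 4 lay below all E2+DHT libraries, and E2 libraries 1 and 3 lay within the E2+DHT range. RARA averaged 13.8 ± 1.67 RPKM with E2+DHT and 11.7 ± 2.08 RPKM with E2 (SD, n = 4 each), a log2 fold change of 0.23 (standard error 0.127, limma with Benjamini-Hochberg adjusted p = 0.999). RARG, the isotype known from skin, had 5.03, 3.86, 4.31 and 4.81 RPKM with E2+DHT and 4.77, 2.95, 4.52 and 3.94 RPKM with E2. Only E2 library 2 lay below the E2+DHT range (log2 fold change 0.15). RARB, itself a classical retinoic acid target gene that is often silenced in breast cancer, had 0.246 to 0.414 RPKM with E2+DHT and 0.234 to 0.356 RPKM with E2. RARA supplied 74.0 ± 0.531% of the summed RAR RPKM with E2+DHT and 73.0 ± 1.59% with E2, ranges that overlapped.

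The receptors for thyroid hormone and vitamin D were expressed at moderate levels. THRB, the thyroid hormone receptor known from pituitary feedback, had 1.78, 2.06, 1.82 and 2.01 RPKM with E2+DHT and 2.07, 2.17, 1.78 and 2.22 RPKM with E2. Libraries E2 1, 2 and 4 lay just above the E2+DHT range and E2 library 3 just below it. THRB averaged 1.92 ± 0.139 RPKM with E2+DHT and 2.06 ± 0.193 RPKM with E2 (SD, n = 4 each), a log2 fold change of -0.08 (standard error 0.0785, limma with Benjamini-Hochberg adjusted p = 0.999). THRA, the isotype of heart and bone, had 1.80, 1.36, 1.49 and 1.72 RPKM with E2+DHT and 1.90, 1.41, 1.66 and 1.18 RPKM with E2. The E2 values enclosed the E2+DHT values on both sides (log2 fold change 0.05). VDR, the receptor for calcitriol, had 3.10, 3.41, 3.93 and 3.93 RPKM with E2+DHT and 3.41, 2.91, 4.35 and 3.66 RPKM with E2. The E2 values again enclosed the E2+DHT values, and VDR averaged 3.59 ± 0.413 RPKM with E2+DHT and 3.58 ± 0.596 RPKM with E2 (SD, n = 4 each), a log2 fold change of 0.01 (standard error 0.113, limma with Benjamini-Hochberg adjusted p = 0.9997). NR1I2, the xenobiotic sensor PXR, and NR1I3, the xenobiotic sensor CAR, are liver receptors. They had at most 0.0219 RPKM and 0.247 RPKM in any library.

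All 3 PPARs, fatty acid sensors, were detected at low levels. PPARD, the ubiquitous isotype, had 1.72, 1.32, 1.57 and 1.72 RPKM with E2+DHT and 1.57, 1.66, 1.56 and 1.28 RPKM with E2. The ranges overlapped over nearly their whole width. PPARD averaged 1.58 ± 0.192 RPKM with E2+DHT and 1.52 ± 0.163 RPKM with E2 (SD, n = 4 each), a log2 fold change of 0.05 (standard error 0.0913, limma with Benjamini-Hochberg adjusted p = 0.999). PPARG, the regulator of fat cell differentiation, had 0.721, 0.895, 0.839 and 0.883 RPKM with E2+DHT and 0.720, 0.776, 1.16 and 0.785 RPKM with E2. E2 library 3 stood above the other 7 libraries (log2 fold change -0.02). PPARA, the regulator of fatty acid oxidation in liver, had 0.776, 0.634, 0.733 and 0.722 RPKM with E2+DHT and 0.802, 0.719, 0.731 and 0.728 RPKM with E2. E2 library 1 stood above the other 3 E2 libraries, and the treatments overlapped (log2 fold change -0.03).

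Of the oxysterol and bile acid receptors, NR1H2, the ubiquitous LXR beta, was the most abundant (ENSG00000131408, chromosome 19, 50832910 to 50886239). NR1H2 had 10.1, 7.82, 8.12 and 8.24 RPKM in E2+DHT libraries 1 to 4 and 9.36, 5.39, 9.24 and 6.35 RPKM in E2 libraries 1 to 4. E2 libraries 2 and 4 lay below all E2+DHT libraries, and E2 libraries 1 and 3 lay above 3 of the 4 E2+DHT libraries. NR1H2 averaged 8.56 ± 1.01 RPKM with E2+DHT and 7.58 ± 2.02 RPKM with E2 (SD, n = 4 each), a log2 fold change of 0.19 (standard error 0.164, limma with Benjamini-Hochberg adjusted p = 0.999). NR1H3, the LXR alpha of liver and macrophages, had 1.87, 1.51, 1.44 and 1.40 RPKM with E2+DHT and 1.74, 1.18, 1.86 and 1.33 RPKM with E2. The order was similar, with E2 libraries 2 and 4 lowest of the 8 (log2 fold change 0.03). NR1H4, the bile acid receptor FXR, had 3 recovered reads over the E2+DHT libraries and 3 over the E2 libraries.

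The orphan receptors held the highest and the lowest levels of the family. NR2F6, a relative of the COUP transcription factors known as a repressor (ENSG00000160113, chromosome 19, 17342692 to 17356749), had 22.2, 16.1, 17.9 and 18.8 RPKM in E2+DHT libraries 1 to 4 and 23.4, 11.7, 18.5 and 15.9 RPKM in E2 libraries 1 to 4. Library 1 was the highest in both treatments, and E2 libraries 2 and 4 lay below all E2+DHT libraries. NR2F6 averaged 18.8 ± 2.56 RPKM with E2+DHT and 17.4 ± 4.88 RPKM with E2 (SD, n = 4 each), a log2 fold change of 0.14 (standard error 0.180, limma with Benjamini-Hochberg adjusted p = 0.999). NR2F2, COUP-TFII, had 2.08, 1.67, 1.99 and 2.15 RPKM with E2+DHT and 2.01, 1.87, 2.06 and 1.89 RPKM with E2. The E2 values lay within the E2+DHT range (log2 fold change 0.01). NR2F1, its close relative, had 4 recovered reads over the E2+DHT libraries and 3 over the E2 libraries.

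NR2C1, the testicular receptor TR2 (ENSG00000120798, chromosome 12, 95414005 to 95467479), was the only tested receptor whose values did not overlap between treatments. NR2C1 had 2.99, 2.88, 2.82 and 2.71 RPKM in E2+DHT libraries 1 to 4 and 3.04, 3.13, 3.12 and 3.13 RPKM in E2 libraries 1 to 4. All 4 E2+DHT values lay below all 4 E2 values, and the gap between the nearest values was smaller than the spread within E2+DHT. NR2C1 averaged 2.85 ± 0.117 RPKM with E2+DHT and 3.11 ± 0.0450 RPKM with E2 (SD, n = 4 each), a log2 fold change of -0.11 (standard error 0.0597, limma with Benjamini-Hochberg adjusted p = 0.999). Of the 20 tested receptors 1 thus failed to overlap, against 3.4% of all tested genes in either direction and 1.42% in the lower direction. NR2C2, the related TR4, had 1.69, 1.63, 1.55 and 1.64 RPKM with E2+DHT and 1.81, 1.54, 1.51 and 1.45 RPKM with E2. E2 library 1 was the highest of the 8 and the other E2 libraries the lowest 3 (log2 fold change 0.04).

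The estrogen-related receptors do not bind estrogen and are known for driving mitochondrial and oxidative metabolism genes. ESRRA, the main member (ENSG00000173153, chromosome 11, 64073044 to 64084215), had 7.90, 6.92, 7.84 and 7.25 RPKM in E2+DHT libraries 1 to 4 and 9.36, 4.70, 8.85 and 6.04 RPKM in E2 libraries 1 to 4. E2 libraries 1 and 3 lay above all E2+DHT libraries and E2 libraries 2 and 4 below all of them. ESRRA averaged 7.48 ± 0.474 RPKM with E2+DHT and 7.24 ± 2.23 RPKM with E2 (SD, n = 4 each), a log2 fold change of 0.09 (standard error 0.179, limma with Benjamini-Hochberg adjusted p = 0.999). ESRRG had 0.0400 to 0.0720 RPKM with E2+DHT and 0.0432 to 0.0673 RPKM with E2, and ESRRB had 2 recovered reads over the E2+DHT libraries and 1 over the E2 libraries.

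**Figure D2:**
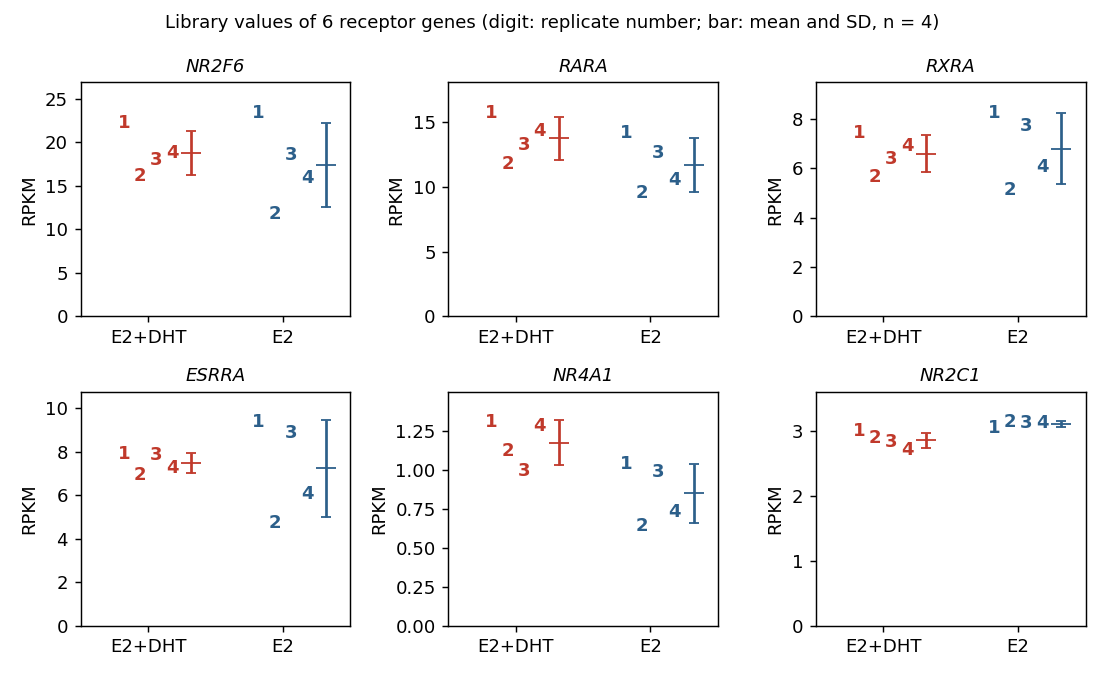
RPKM of NR2F6, RARA, RXRA, ESRRA, NR4A1 and NR2C1 in each library, E2+DHT in red left of E2 in blue; digits are replicate numbers and bars give the mean and SD (n = 4). ESRRA spans 4.70 to 9.36 RPKM within E2 alone and encloses the E2+DHT values, while the NR2C1 values of the treatments do not overlap.

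NR4A1 (Nur77, ENSG00000123358, chromosome 12, 52416616 to 52453291), an immediate early orphan receptor induced within hours by many stimuli, had the lowest p of the family. NR4A1 had 1.30, 1.12, 0.991 and 1.28 RPKM in E2+DHT libraries 1 to 4 and 1.04, 0.641, 0.983 and 0.730 RPKM in E2 libraries 1 to 4. E2 libraries 2, 3 and 4 lay below all E2+DHT libraries, and E2 library 1 lay above E2+DHT library 3 alone. NR4A1 averaged 1.17 ± 0.146 RPKM with E2+DHT and 0.847 ± 0.192 RPKM with E2 (SD, n = 4 each), a log2 fold change of 0.32 (standard error 0.111, limma with Benjamini-Hochberg adjusted p = 0.797). Its unadjusted p stayed under 0.05 in 8 of 8 fits that left out 1 library, with log2 fold changes of 0.24 to 0.39, and in none of them did it pass after adjustment. With groups from the record titles the log2 fold change was -0.02, and without E2 libraries 2 and 4 it was 0.14 (limma with Benjamini-Hochberg adjusted p = 0.778).

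Its relatives NR4A2 (Nurr1) and NR4A3 (NOR1) lay below the tested range. NR4A2 had 0.379, 0.386, 0.526 and 0.506 RPKM with E2+DHT and 0.513, 0.475, 0.430 and 0.554 RPKM with E2. The treatments overlapped, and the E2+DHT libraries split into a lower and a higher pair. NR4A3 had 0.0961 to 0.184 RPKM with E2+DHT and 0.143 to 0.162 RPKM with E2, again with overlap.

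**Figure D3:**
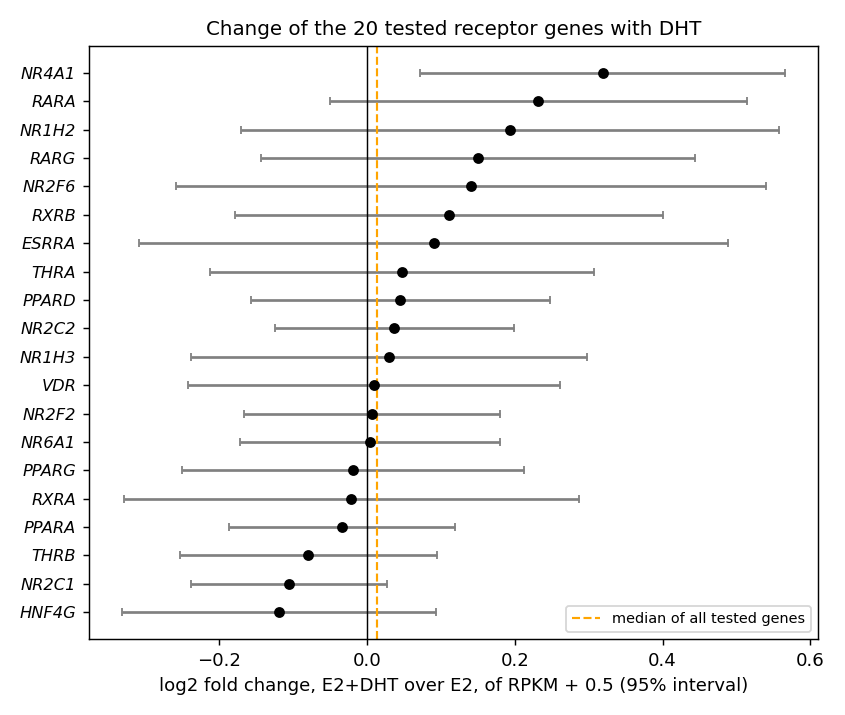
log2 fold change of the 20 tested receptor genes, E2+DHT over E2 on the RPKM + 0.5 scale, with 95% intervals from limma; the dashed line is the median of all 11375 tested genes (0.01). Of the 20 intervals only that of NR4A1 (0.07 to 0.57) leaves out 0, and no gene passed after adjustment.

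The remaining receptors were low. HNF4G, the intestinal relative of the liver factor HNF4A, was the lowest but 1 of the tested genes, with 0.535, 0.807, 0.585 and 0.646 RPKM with E2+DHT and 0.600, 0.809, 0.719 and 0.833 RPKM with E2. It overlapped between treatments and averaged 0.643 ± 0.118 RPKM with E2+DHT and 0.740 ± 0.106 RPKM with E2 (SD, n = 4 each), a log2 fold change of -0.12 (standard error 0.0957, limma with Benjamini-Hochberg adjusted p = 0.999). NR6A1, the germ cell nuclear factor, had 0.661, 0.494, 0.562 and 0.607 RPKM with E2+DHT and 0.603, 0.534, 0.661 and 0.514 RPKM with E2. Its treatments overlapped, and it averaged 0.581 ± 0.0707 RPKM with E2+DHT and 0.578 ± 0.0671 RPKM with E2 (SD, n = 4 each), a log2 fold change of 0.00 (standard error 0.0793, limma with Benjamini-Hochberg adjusted p = 0.9997). HNF4A itself had 6 recovered reads over the E2+DHT libraries and 2 over the E2 libraries.

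Among the untested genes, NR5A2, the liver receptor homologue that regulates steroid and bile acid genes, had 0.122, 0.105, 0.119 and 0.0965 RPKM with E2+DHT and 0.0764, 0.0906, 0.0771 and 0.0752 RPKM with E2. All 4 E2+DHT values lay above all E2 values, from 105 reads over the E2+DHT libraries and 61 over the E2 libraries. RORB, a retinoid-related orphan receptor of retina and brain, had 0.0482, 0.0213, 0.0484 and 0.0392 RPKM with E2+DHT and 0.0523, 0.0819, 0.0575 and 0.0866 RPKM with E2. All 4 E2+DHT values lay below all E2 values, from 48 reads over the E2+DHT libraries and 64 over the E2 libraries. These were 2 of the 18 untested receptors with any reads, against 1.69% of all genes above 0 but under the minimum. In the fit without a minimum on 27594 genes neither passed (limma with Benjamini-Hochberg adjusted p = 0.920 for each), although both were under 0.05 before adjustment.

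NR2E3, the photoreceptor receptor, had 0.0888 to 0.128 RPKM with E2+DHT and 0.120 to 0.167 RPKM with E2, and RORA, the broadly expressed isotype, had 0.0852 to 0.126 RPKM with E2+DHT and 0.0803 to 0.134 RPKM with E2. NR1I2, NR2E1, NR2F1, NR1H4, HNF4A, ESRRB, NR5A1, NR0B1 and NR0B2 each had under 20 recovered reads over the 8 libraries together, and at most 3 in any library. NR5A1, the regulator of steroid-producing glands, had 1 recovered read in each treatment. NR0B1 had a single read, in E2 library 2, and NR0B2, the small heterodimer partner SHP, had none. A count of 0 leaves room for up to 3 reads in a library, counting error only, and recovered reads of such low genes may be too few because the shortest fitting exon length was taken.

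Read beside all tested genes, the receptors had shifts of similar size. Of the 20, 14 had a positive and 6 a negative log2 fold change, where 56.3% of all tested genes were positive. The median log2 fold change was 0.03 for the receptors and 0.01 for all 11375 tested genes, and the median absolute change was 0.06 for both. These are descriptions, since no test was made over the list. The direction of individual genes depended on the scaling and grouping: 7 of 20 changed sign when the libraries were scaled to the same RPKM sum (NR1H3, NR2C2, NR2F2, NR6A1, PPARD, THRA and VDR), and 10 of 20 with groups from the record titles.

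The ratio of heterodimer partners to RXR was also compared, as a description. The summed RXR level was 7.63 to 10.3 RPKM with E2+DHT and 6.90 to 10.8 RPKM with E2. The summed level of 16 partners of RXR (the RARs, thyroid hormone receptors, VDR, PPARs, LXRs, FXR, PXR, CAR, NR4A1 and NR4A2) was 36.8 to 44.7 RPKM with E2+DHT and 30.3 to 42.6 RPKM with E2. Partners per RXR came to 4.59 ± 0.200 with E2+DHT and 4.21 ± 0.217 with E2 (SD, n = 4 each), and the ranges of 4.34 to 4.83 and 3.94 to 4.39 overlapped. In each treatment the library with the highest RXR sum had the lowest ratio. The RXR sum is the denominator of this ratio, so a high sum lowers the ratio by construction.

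Libraries of the same treatment differed among themselves as well, and the size of the difference varied with transcript base composition. This pattern was noticed in the data and then computed. It was first seen as low values in E2 replicates 2 and 4, which are also the E2 libraries of the later passage. Within E2+DHT, the 2 libraries of passage 11 minus the 2 of passage 9 gave a log2 difference of -0.19 for NR2F6, -0.16 for NR1H2 and -0.14 for ESRRA, against 0.21 for HNF4G and 0.14 for THRB. Of the 20 tested receptors 14 were lower at passage 11, where 60.1% of all tested genes were. The median difference was -0.14 in the 10 receptors of higher GC content (58.5% and more) and -0.02 in the 10 of lower GC content (55.4% and less).

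Within E2, passage 10 minus passage 8 gave larger differences, again lower in GC-rich receptors. ESRRA had -0.72, NR1H2 -0.63 and NR2F6 -0.59, against 0.19 for HNF4G, 0.15 for THRB and 0.02 for NR2C1. Of the 20 receptors 17 were lower at passage 10, where 71.2% of all tested genes were. The medians were -0.40 in the higher-GC and -0.10 in the lower-GC receptors. Across the 20 receptors, the difference between passages and transcript GC content had a Pearson r of -0.73 within E2+DHT and -0.87 within E2, and across 11163 tested genes with a GC value r was -0.33 within E2+DHT and -0.71 within E2. These are descriptions across genes that share the same libraries, and genes are not independent replicates. GC content also went with level. The 6 highest receptors all lay in the higher-GC group. PPARG, PPARA, HNF4G and NR6A1, at 0.580 to 0.848 RPKM, lay in the lower-GC group. The match was not complete. RXRB, THRA, PPARD and NR4A1, at 1.01 to 2.05 RPKM, lay in the higher-GC group. VDR and NR2C1, at 3.59 and 2.98 RPKM, lay in the lower-GC group. Adding 0.5 RPKM shrinks the differences of low genes more, and the parts of level and GC content were not tested.

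**Figure D4:**
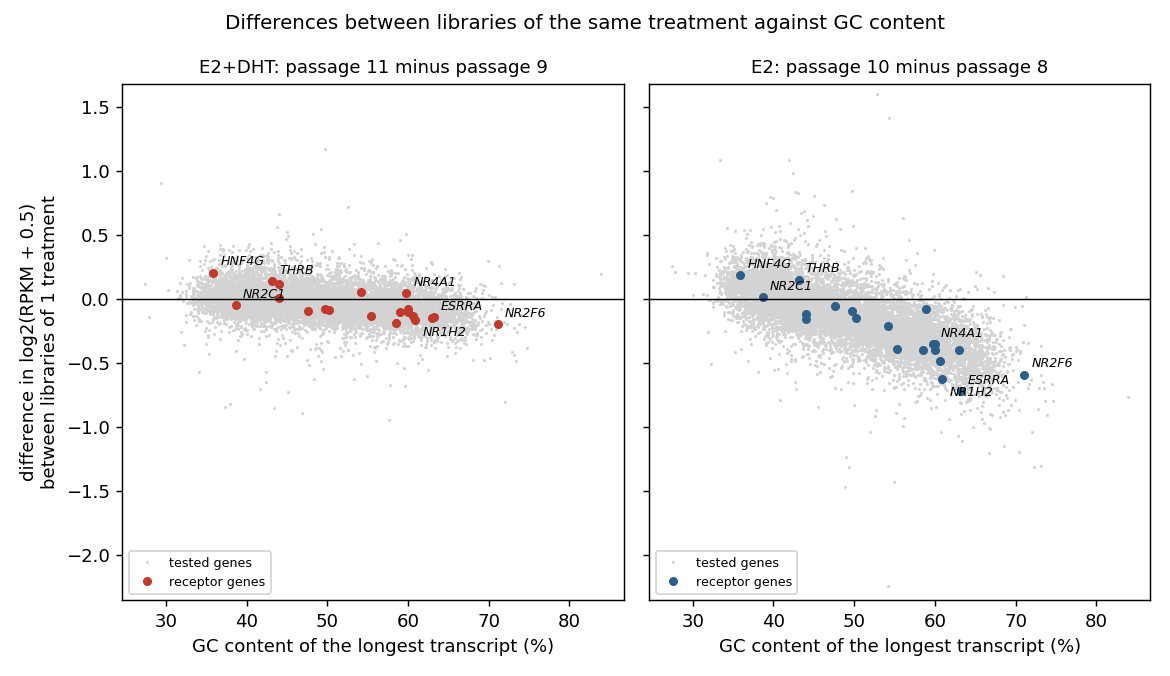
Difference in log2(RPKM + 0.5) between the later and the earlier passage within 1 treatment (vertical) against GC content of the longest transcript in percent (horizontal), E2+DHT left and E2 right; grey points are tested genes and coloured points the 20 receptors. In the E2 panel ESRRA, NR1H2 and NR2F6 lie at -0.72 to -0.59 and HNF4G and THRB above 0. Passages are those of the records, read under the library names.

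The treatment contrast also varied with base composition. Across the 20 receptors the log2 fold change of E2+DHT over E2 had a Pearson r of 0.75 with transcript GC content, against 0.40 across 11163 genes. Its median was 0.13 in the 10 receptors of higher GC content and -0.01 in the 10 of lower GC content. The limit that GC content went with level holds here too. Exon share was set beside these levels as a description. It spanned 78.3% to 83.7% within E2 and only 83.2% to 84.8% within E2+DHT. In E2+DHT, library 2 had the lowest values of ESRRA, NR1H2 and NR2F6 at an exon share of 84.5%, and library 1 the highest at 83.7%. In E2, the same genes were lowest in the 2 libraries with the lowest shares, 78.3% and 80.0%. Summed over the 20 tested receptors, the level was 92.1, 73.8, 80.1 and 83.8 RPKM in E2+DHT libraries 1 to 4 and 93.0, 60.4, 85.8 and 70.1 RPKM in E2 libraries 1 to 4. The part of exon share, passage or base composition in these differences was not tested. Under the library names, passage and treatment cannot be told apart.

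With the GC trend removed from each library, an alternative added after seeing the data, 0 of 20 receptors were called and 7 changed sign. NR4A1 then had a log2 fold change of 0.23 (limma with Benjamini-Hochberg adjusted p = 0.266) and RARA of 0.13, both under 0.05 before adjustment. Without E2 libraries 2 and 4, also added after seeing the data, 0 of 20 were called and 3 of 20 had a positive log2 fold change, with a median of -0.08.

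Reads of some receptors may be shared with a neighbouring gene on the opposite strand, because the use of strand in counting is not given in the sources used here. This concerns THRA (overlapping MED24 and NR1D1), RXRB (SLC39A7), NR1H3 (ACP2), ESRRA (TRMT112), NR2C2 (FGD5-AS1 and MRPS25) and NR1I3 (TOMM40L). Their gene spans overlapped by 284 bases (ESRRA with TRMT112) to 11141 bases (NR2C2 with MRPS25). Only reads within an overlap are concerned, and there the gene and its neighbour cannot be told apart. It also concerns NR0B2, which lies wholly within the span of NUDC.

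Genes that supply ligands to these receptors or respond to them were read from a list of 53 partner genes, all present in the table, of which 27 were tested. None of the 27 passed an adjusted p of 0.05, 15 had a positive and 12 a negative log2 fold change, and the median was 0.00. At an unadjusted limma p under 0.05 there were 3 of 27, MYLIP, ANGPTL4 and PPARGC1B, against 4.47% of all tested genes. Values of 2 of 27 did not overlap between treatments, both higher with E2+DHT, where 1.98% of all tested genes were higher without overlap.

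Retinoid handling was dominated by CRABP2, the protein that carries retinoic acid to the nucleus. CRABP2 had 163, 138, 168 and 179 RPKM with E2+DHT and 147, 131, 184 and 164 RPKM with E2. The treatments overlapped (log2 fold change 0.06, limma with Benjamini-Hochberg adjusted p = 0.999). CRABP1, a cytosolic retinoic acid binding protein, had the largest difference among the 7 tested of 16 genes of this role, with 0.749, 0.690, 0.850 and 0.883 RPKM with E2+DHT and 1.13, 0.797, 1.24 and 0.661 RPKM with E2. It overlapped too (log2 fold change -0.16). The retinoic acid degrading enzyme CYP26A1, a sensitive target of RARs, averaged 0.0110 RPKM with E2+DHT and 0.00630 RPKM with E2. ALDH1A1, a retinaldehyde dehydrogenase under the minimum for testing, had 0.0304, 0.0895, 0.0305 and 0.0330 RPKM with E2+DHT and 0.0220, 0, 0.0176 and 0 RPKM with E2, which did not overlap but rested on 14 reads over the E2+DHT libraries and 3 over the E2 libraries; it was picked after its values were seen.

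For vitamin D, the hydroxylase CYP2R1, which starts the activation of vitamin D, had 3.87 to 4.65 RPKM with E2+DHT and 3.79 to 4.90 RPKM with E2 (log2 fold change -0.03). CYP27B1, which makes calcitriol, had 1.27, 1.10, 1.31 and 1.24 RPKM with E2+DHT and 1.28, 1.22, 1.02 and 0.894 RPKM with E2. The E2 range was wider and enclosed most E2+DHT values (log2 fold change 0.11). CYP24A1, the most responsive known target of VDR, averaged 0.0516 RPKM with E2+DHT and 0.0530 RPKM with E2.

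Among LXR targets, MYLIP, the ubiquitin ligase that marks the LDL receptor for degradation (ENSG00000007944, chromosome 6, 16129356 to 16148479), had 12.9, 12.2, 11.5 and 11.6 RPKM in E2+DHT libraries 1 to 4 and 10.1, 7.51, 10.2 and 9.52 RPKM in E2 libraries 1 to 4. All 4 E2+DHT values lay above all 4 E2 values. MYLIP averaged 12.1 ± 0.667 RPKM with E2+DHT and 9.34 ± 1.26 RPKM with E2 (SD, n = 4 each), a log2 fold change of 0.36 (standard error 0.0974, limma with Benjamini-Hochberg adjusted p = 0.381). Over the alternatives its Benjamini-Hochberg adjusted limma p ranged from 0.0316 to 0.9999, and with groups from the record titles its log2 fold change was 0.02. LPCAT3, a phospholipid remodelling enzyme and the most abundant of the 6 tested LXR and bile acid genes, had 16.6, 15.2, 15.7 and 16.2 RPKM with E2+DHT and 15.3, 13.4, 15.4 and 12.03 RPKM with E2. E2 libraries 2 and 4 lay below all E2+DHT libraries (log2 fold change 0.19). The cholesterol exporters ABCA1 and ABCG1, the best known LXR targets, had log2 fold changes of -0.05 and -0.05.

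Of the 10 tested genes of PPARs and estrogen-related receptors, CYCS, cytochrome c, was the most abundant, with 39.7, 51.7, 49.6 and 42.5 RPKM with E2+DHT and 39.5, 47.1, 48.5 and 51.9 RPKM with E2. It overlapped between treatments (log2 fold change -0.03). ANGPTL4, a PPAR target that inhibits lipoprotein lipase, had the largest difference, with 0.745, 0.596, 0.748 and 0.947 RPKM with E2+DHT and 0.619, 0.316, 0.626 and 0.610 RPKM with E2. E2 library 2 stood below the other 7 libraries, and E2 libraries 1, 3 and 4 lay above the lowest E2+DHT library. ANGPTL4 averaged 0.759 ± 0.144 RPKM with E2+DHT and 0.543 ± 0.151 RPKM with E2 (SD, n = 4 each), a log2 fold change of 0.28 (standard error 0.124, limma with Benjamini-Hochberg adjusted p = 0.999). PPARGC1B, a coactivator of the estrogen-related receptors, had 0.616, 0.586, 0.599 and 0.644 RPKM with E2+DHT and 0.447, 0.457, 0.568 and 0.466 RPKM with E2. All 4 E2+DHT values lay above all E2 values, and it averaged 0.611 ± 0.0253 RPKM with E2+DHT and 0.484 ± 0.0560 RPKM with E2 (SD, n = 4 each), a log2 fold change of 0.18 (standard error 0.0701, limma with Benjamini-Hochberg adjusted p = 0.999). CPT1A, which carries fatty acids into mitochondria, had 33.9 to 39.9 RPKM with E2+DHT and 33.4 to 40.4 RPKM with E2 (log2 fold change 0.00 after rounding).

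For thyroid hormone, HR, a corepressor that responds to thyroid hormone in rat brain, had 3.19, 2.65, 3.47 and 3.78 RPKM with E2+DHT and 3.24, 1.87, 3.58 and 2.82 RPKM with E2. E2 library 2 stood below the other 7 libraries (log2 fold change 0.18). The deiodinases DIO1, DIO2 and DIO3, which activate or inactivate thyroid hormone, averaged 0.399, 0.261 and 0.0520 RPKM with E2+DHT and 0.457, 0.185 and 0.0748 RPKM with E2. None of the 4 xenobiotic response genes, the targets of PXR and CAR, reached the minimum for testing.

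**Figure D5:**
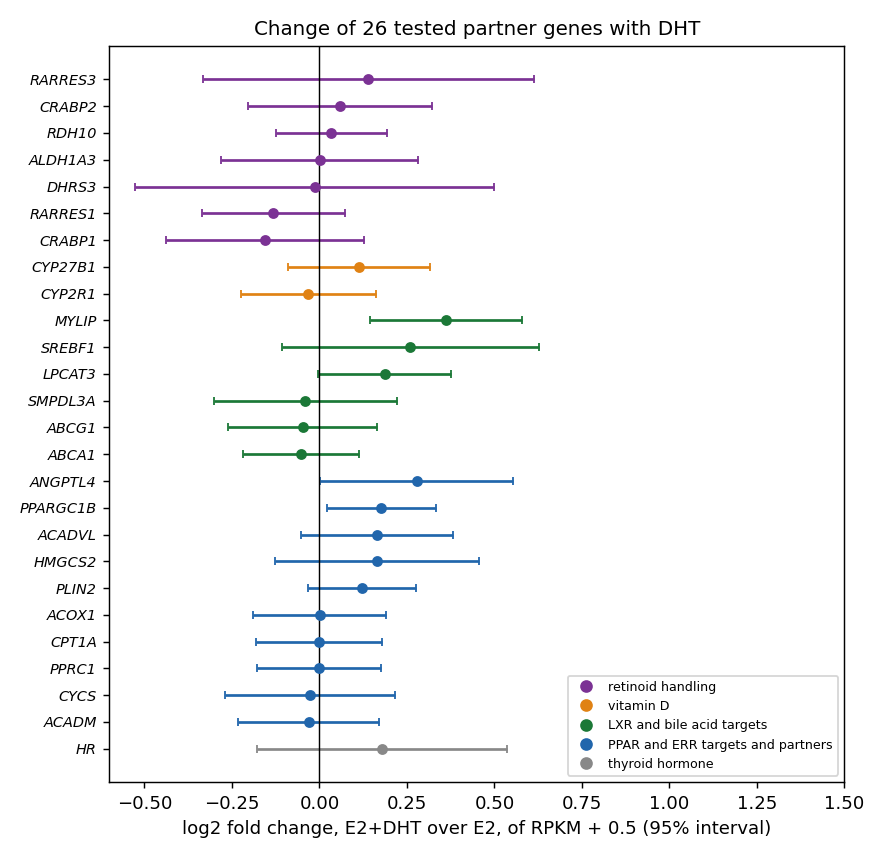
log2 fold change of 26 of the 27 tested partner genes, E2+DHT over E2 on the RPKM + 0.5 scale, with 95% intervals from limma, coloured by role. The intervals of MYLIP, ANGPTL4 and PPARGC1B leave out 0, and none of the 27 genes passed after adjustment.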

How the data were processed

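The deposited RPKM values, which the authors scaled by exon length and library size, fill 1 table of 57773 genes for 8 libraries. Per the submitters' processing notes the build was hg19, and per the labels' protocols a stranded total RNA kit was read as paired ends. For the aligner, the counter, its strand setting and the annotation, tool and version were not given in the sources used here. The 4 E2+DHT and 4 E2 libraries were grouped by library name, and values were compared as log2(RPKM + 0.5) for genes with a mean of at least 0.5 RPKM. Genes were tested two-sided in limma 3.58.1 under R 4.3.3, by empirical Bayes with the trend option and no block, with Benjamini-Hochberg adjustment over 11375 genes and a threshold of 0.05.

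From the deposited RPKM steps, whole reads were recovered for 100% of 27594 genes above 0 (tolerance 0.0001 reads), giving library sizes of 19599217 to 34616639 reads, and limma's voom on these reads was an alternative. Intervals cover counting error only where given for reads. Of the marker list 22 of 23 symbols had a row that was matched. GC content came from the longest GENCODE transcript on GRCh38, found for 98.1% of tested genes. The zinc module was found by its cysteine spacing, and matches were kept for 30 of the genes. Any match on chromosome 8, where HNF4G lies, was left out. Computation and plots used Python 3.11.15, pandas 2.3.3, NumPy 2.4.6 and matplotlib 3.10.9, and the test was tested on simulated data.

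The members and lists were chosen with earlier results of these data known. Named genes were all 39 members, with full statistics for tested members with an unadjusted p under 0.05 or without overlap and for the highest of each receptor group, and among partner genes those past the threshold and, in each role, the most abundant and the one with the largest change. Values of 1 partner gene that this rule names and of 1 neighbouring gene are not reported here. Other genes with values were picked after their values were seen. The replicate numbers were checked for pairing (closing section), and 24 alternatives were run, 5 of them added after seeing the data.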

Additional observations from a re-analysis of the deposited data

Results flagged for a closer look

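In 3 of 40 groups of 4 libraries (20 tested receptors in each treatment) 1 library stood far from the other 3, with a gap to the nearest that exceeded Dixon's 95% critical share of the group's range. Chance flags about 1 in 20 such groups. PPARA had 0.802 RPKM in E2 replicate 1, above the other 3 E2 libraries. PPARG had 1.16 RPKM in E2 replicate 3, above the other 3. NR2C1 had 3.04 RPKM in E2 replicate 1, below the other 3 E2 libraries, whose values of 3.12 and 3.13 RPKM lay close together.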

How the results depend on the processing

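Under all 24 alternatives 0 of the tested receptors were called, and their median log2 fold change lay between -0.08 and 0.11. The value of 0.11 came from the 9 receptors with a mean of at least 2 RPKM. The median of the receptors had an SD of 0.12 between single libraries, which is not the error of a contrast of treatment means. The partner genes had 0 calls except with the replicate block and median centring together, where 1 was called (MYLIP, limma with Benjamini-Hochberg adjusted p = 0.0316). Without single libraries both counts stayed at 0 and the receptor median lay between -0.02 and 0.08.

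Calls among all genes (21) moved more: 5 without a filter on low values, 33 with median centring, 72 with the replicate block, 2 with groups from record titles, 0 with the 4 records whose labels agree (286 at an unadjusted p under 0.05), 6 to 18 without single libraries, 6 without E2 replicates 2 and 4, 5 with exon share as a covariate, 36 with exon share centred within treatment, 84 with the GC trend removed and 131 with block and median centring. With equal RPKM sums 18 were higher and 4 lower, against 20 and 1. Uncalled receptors changed sign in 3 of 20 with median centring, 7 with equal sums, 7 with the GC trend removed, 5 with agreeing records, 10 with record titles, 11 without E2 replicates 2 and 4, 11 with exon share as a covariate and 1 to 6 without single libraries. The cause was not tested.

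Libraries of the same number deviated together with r of 0.70, 0.45, 0.12 and 0.08 for numbers 1 to 4, not all over 0.1, so the replicate block stayed an alternative (0 receptors, median 0.03).

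Precision is limited by 4 libraries a treatment: the receptors' 95% intervals reach 1.48-fold, and a tested receptor had as few as 65 reads in a library. Receptors under 20 reads cannot be compared at this depth.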
